A study of Saccharomyces cerevisiae with 15 samples.

Results

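The genes described here are 33 genes of sulfate assimilation and methionine metabolism in the budding yeast Saccharomyces cerevisiae, out of 5449 S. cerevisiae genes measured on the arrays. They were chosen by gene symbol as the permeases, enzymes and transcriptional regulators of the pathway, with earlier results of these data known. MET17, which is deleted in the strain, was left out. All 33 genes matched a probe set in the annotation, each exactly 1. They fall into 6 for uptake, 8 for sulfate assimilation, 4 for homocysteine and methionine synthesis, 4 for transsulfuration, 5 for the S-adenosylmethionine cycle and 6 regulators.

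RNA of 15 samples was hybridized to Affymetrix Yeast Genome 2.0 arrays, with 5 biological replicates in each of 3 groups. The dense and the light WT cells (labelled HD and LD) were fractions of strain BY4741, parted on a Percoll density gradient on day 3 of culture in YPD with 2% glucose at 30 °C. The light Rho0 cells were the LD fraction of a Rho0 strain of the same BY4741 background, Rho0 being the name for cells that have lost their mitochondrial DNA. The BY4741 strain, a common haploid of the a mating type, lacks functional MET17, LEU2, HIS3 and URA3, so all 3 groups share these deletions. How the Rho0 strain was made, and whether it is 1 clone, is not given in the sources used here. No dense Rho0 fraction was analysed here, so in the comparison of light Rho0 with dense WT cells genotype and density cannot be told apart.

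Yeast makes methionine and cysteine from sulfate. Sulfate is taken up by permeases, activated with ATP, and reduced to sulfite and then sulfide, and the enzyme encoded by MET17 joins sulfide to O-acetylhomoserine to give homocysteine. Homocysteine is methylated to methionine or passed to cysteine by transsulfuration, and methionine is turned into S-adenosylmethionine, the main methyl donor of the cell. Because met17 mutants cannot complete this route, they depend on methionine or another organic sulfur source from the medium. The pathway is controlled by the activator Met4, which binds DNA through cofactors and is held in check by the ubiquitin ligase SCF-Met30 when sulfur amino acids are plentiful.

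Values are log2 signals, so a difference of 1 is a change of 2-fold, and signals of different probe sets were not set against each other. A gene was called when its limma p, adjusted by the Benjamini-Hochberg method over all 5449 genes, was under 0.05, and differences are given ± SE. The replicates are biological per the labels, and their number, 5 in each group, limits the precision. In bulk samples such as these, fewer cells of a type and less RNA per cell cannot be told apart.

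The deleted MET17 and URA3 genes read at group means of 2.14 to 2.42, below the level of 2.56 taken as background, whereas LEU2 and HIS3 were at 2.67 to 2.90 and 5.87 to 6.09. The 8 genes on mitochondrial DNA chosen to check the Rho0 label are not named in the annotation and were not analysed here. Of 4 marker genes of the alpha mating type, all 4 fell in light WT cells against dense WT cells, and of 6 markers of sporulating cells 5 fell. Of all genes 41.1% fell and 26.2% rose there. The 4 alpha markers had group means from 2.82 to 10.27 in dense WT cells and from 2.26 to 8.97 in light WT cells. In light Rho0 cells they ranged from 2.24 to 9.34. The lowest, MF(ALPHA)1, was below the background level in both light groups, and the highest was SAG1. The group means of the 6 sporulation markers ranged from 2.55 to 8.50 in dense WT cells, from 2.33 to 6.74 in light WT cells and from 3.14 to 6.54 in light Rho0 cells. Of 6 markers of mating type a, 5 rose and 1 fell in light WT cells against dense WT cells. Their group means ranged from 2.40 to 9.64, from 3.65 to 11.62 and from 3.15 to 10.43 in dense WT, light WT and light Rho0 cells. In light Rho0 against light WT cells 2 alpha markers fell, 4 sporulation markers rose, and 2 markers of mating type a rose and 3 fell. Of all genes 44.6% rose and 22.7% fell there. Against dense WT cells 4 alpha markers fell, 2 sporulation markers rose and 2 fell, and 4 markers of mating type a rose and 1 fell. In that comparison 37.9% of all genes rose and 34.4% fell. For the 5′ end of 25S ribosomal RNA the signal was 7.87 ± 0.13 in dense WT cells, 11.36 ± 0.45 in light WT cells and 7.75 ± 0.27 in light Rho0 cells (SD, n = 5). In the same order the probe set for its middle read 10.99 ± 0.32, 14.17 ± 0.04 and 13.28 ± 0.15. That for its 3′ end read 13.94 ± 0.14, 14.16 ± 0.02 and 14.24 ± 0.02. The poly-A spike-in probe sets averaged 10.11 ± 0.20, 10.34 ± 0.24 and 9.66 ± 0.24. The part of these differences in the results below was not tested.

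The 33 genes did not move as a block between the light and dense WT cells. In the deposited scaling, though, most of them were at their lowest in the light Rho0 cells. With the arrays shifted to the same mean of the poly-A spike-ins, 13 of the 33 fell and 14 rose in Rho0 against light WT cells. As deposited, the median signal of the 33 genes on an array was 6.50 ± 0.29 in dense WT cells, 6.97 ± 0.13 in light WT cells and 5.62 ± 0.16 in light Rho0 cells (SD, n = 5). In the deposited scaling, every light Rho0 array was below every array of both WT groups in 17 of the 33 genes (51.5%). Among all genes this held for 12.9%. The reverse, with every Rho0 array above all WT arrays, held for only 3 of the 33 (9.09%, against 22.7% of all genes), namely MET3, MET10 and MHT1. The light WT group was the highest without overlap in 6 genes (18.2%, against 6.55% of all genes), MUP1, MUP3, MET2, CYS3, SAM2 and MET30, and the lowest in 0 (against 11.6%). The dense WT group was the highest without overlap in 7 genes (21.2%, against 17.1%) and the lowest in 4 (12.1%, against 14.1%). All 3 groups were apart from each other in 11 genes (33.3%, against 20.8%). The spread between replicates was like that of other genes, with a median SD of 0.24, 0.20 and 0.17 in the 3 groups against 0.28, 0.21 and 0.17 over all genes.

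**Figure D1:**
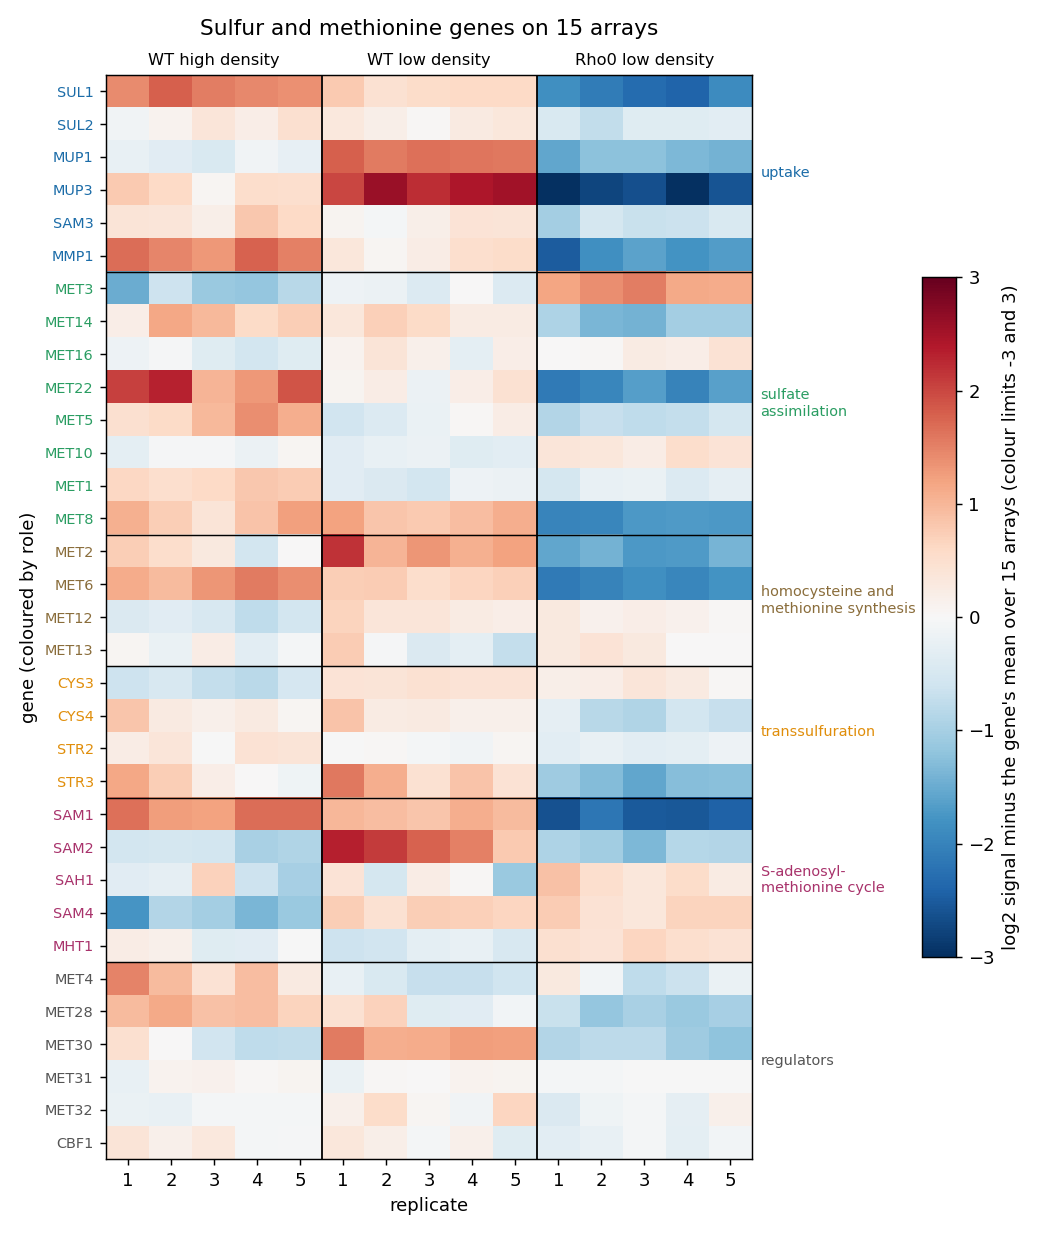
Heat map of the log2 signal of each of the 33 genes (rows, grouped and coloured by role) on each of the 15 arrays (columns, replicates 1 to 5 of each group), shown as the difference from the mean of the gene over the 15 arrays. In the deposited scaling all 6 uptake genes are at their lowest on the 5 light Rho0 arrays, and MET3 is at its highest there.

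Light and dense WT cells of the same culture age were compared first. In the light cells 11 of the 33 genes rose, 11 fell and 11 did not pass the test. The 22 called genes are 66.7% of the set, against 67.2% of all genes, so the share called was at the background of this comparison. The share that rose was 33.3% against 26.2% of all genes, and the share that fell was 33.3% against 41.1%. The median difference was -0.02, against -0.17 over all genes, and it turned to 0.14 by quantile normalization and to 0.10 with the arrays shifted to the same S. cerevisiae median. At 2-fold or more 7 genes rose and 4 fell, against 28% of all genes (11.7% up and 16.3% down). The groups did not overlap in 9 genes that were higher and 8 that were lower, against 47.9% of all genes (19.6% and 28.3%).

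Each role held both rising and falling genes in this comparison, in the deposited scaling with all arrays. The only fall in transsulfuration, STR2, was not called when any of 3 arrays was left out (adjusted p from 0.0502 to 0.0519). With the arrays shifted to the same S. cerevisiae median, transsulfuration held 2 rises and 0 falls. The rises were led by SAM2, MUP1, SAM4, MUP3 and MET30, and the falls by MET22, MET4, MMP1 and MET5.

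Light Rho0 cells were compared with light WT cells, which differ in genotype at the same labelled density class. Here 20 of the 33 genes fell, 4 rose and 9 did not pass the test. The 24 called genes (72.7%) stand against 67.3% of all genes, and the direction was unlike that of the array as a whole: 60.6% of the 33 fell against 22.7% of all genes, and 12.1% rose against 44.6%. The median difference was -0.67, against 0.25 over all genes. At 2-fold or more 14 genes fell and 1 rose, against 27.7% of all genes (10.1% down and 17.7% up). The groups did not overlap in 19 genes that were lower and 3 that were higher, against 57.2% of all genes (19.3% and 37.9%). With the arrays shifted to the same mean of the poly-A spike-ins (the poly-A shift), 13 of the 33 fell and 14 rose, with a median of 0.01 against 0.94 over all genes.

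The light Rho0 cells were then set against dense WT cells, a comparison that shares its arrays with the other two. In it 21 genes fell, 8 rose and 4 did not pass the test. The 29 called genes (87.9%) stand against 72.4% of all genes, with 63.6% falling against 34.4% and 24.2% rising against 37.9%. The median was -0.96, against 0.03 over all genes. With the poly-A shift it was -0.51 against 0.48, with 16 genes falling and 9 rising, and the falls of SUL2, CYS4, STR2, MET30 and CBF1 were no longer called, CBF1 turning to 0.10. At 2-fold or more 15 genes fell and 2 rose, against 38.1% of all genes (17.8% down and 20.4% up). The groups did not overlap in 20 genes that were lower and 7 that were higher, against 58.9% of all genes (27.5% and 31.4%).

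**Figure D2:**
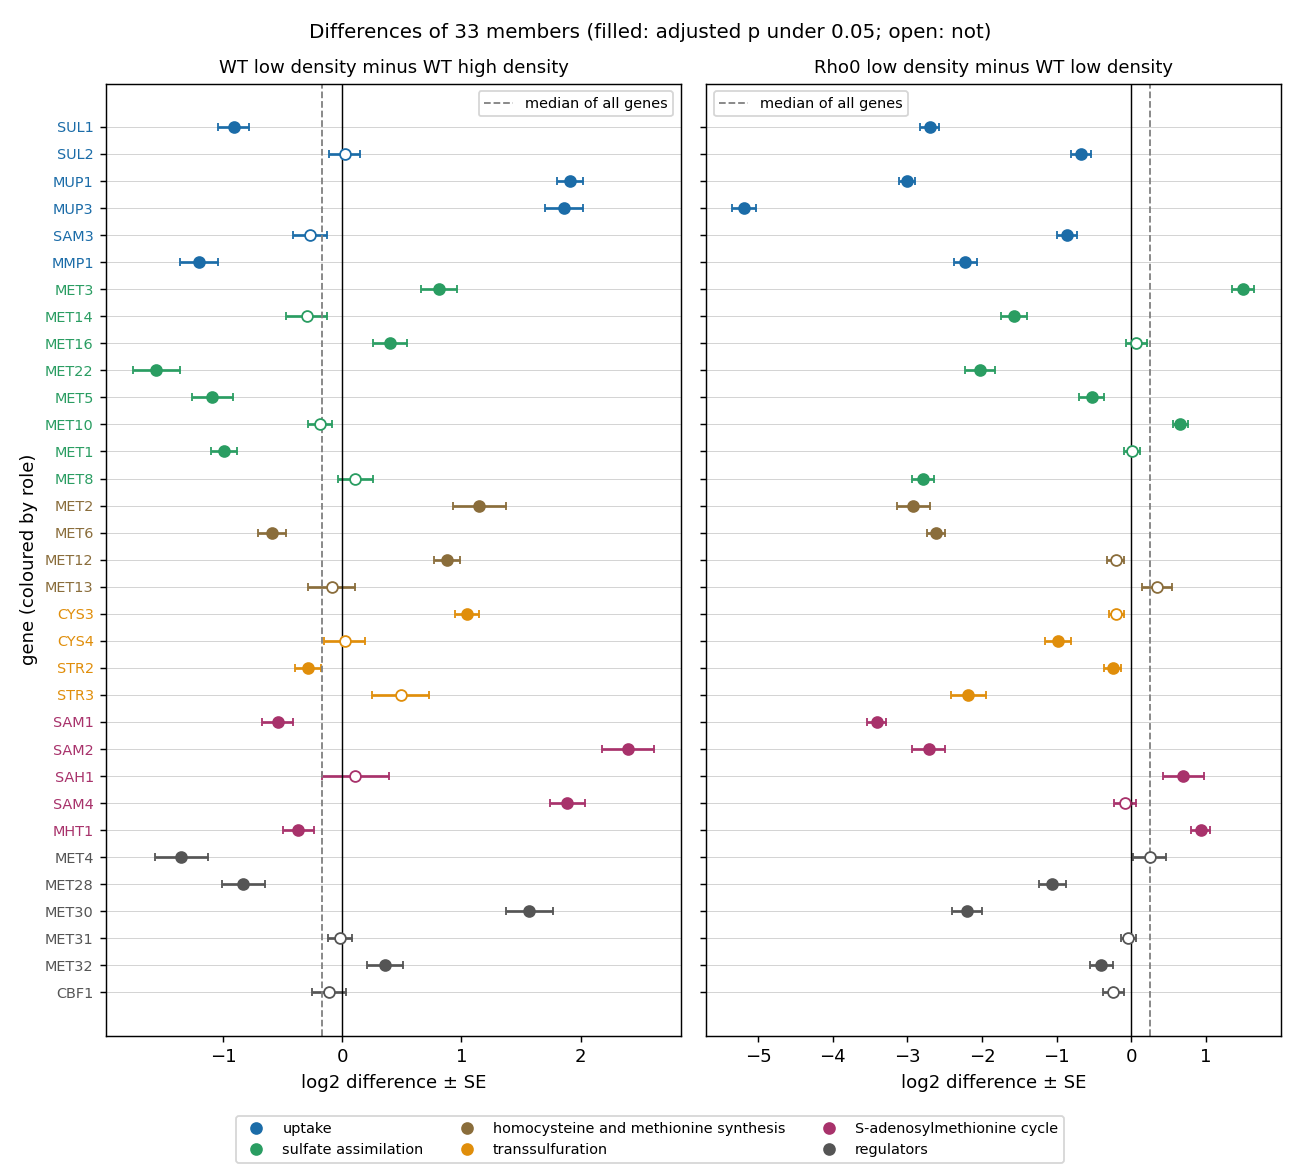
Log2 difference ± SE of each of the 33 genes for light WT cells minus dense WT cells (left) and light Rho0 cells minus light WT cells (right), coloured by role, with filled points for an adjusted p under 0.05 and a dashed line at the median of all genes. Points lie on both sides of 0 on the left, whereas on the right, in the deposited scaling, 20 filled points lie below 0 and 4 above.

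All 6 permease genes of the uptake group fell in light Rho0 cells against both WT groups, and no array of the Rho0 group reached the lowest WT array for any of them. With the poly-A shift SUL2 turned to 0.01 and SAM3 was at -0.17 against light WT cells, neither called, and the other 4 still fell. Against dense WT cells SUL2 was -0.20 with that shift and not called (adjusted p = 0.384), and the other 5 fell. Between the WT groups the role was split, with both methionine permeases higher and SUL1 and MMP1 lower in the light cells.

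MUP3 (YHL036W), which encodes a low-affinity methionine permease, read 10.65, 10.46, 9.92, 10.39 and 10.38 in replicates 1 to 5 of the dense WT cells. It read 11.87, 12.45, 12.08, 12.30 and 12.39 in light WT cells and 6.68, 7.12, 7.23, 6.86 and 7.28 in light Rho0 cells. The 3 groups did not overlap, and all light WT arrays were the highest. MUP3 rose by 1.86 ± 0.16 (3.63-fold, adjusted p = 6.56e-09) from dense to light WT cells. It fell by 5.18 ± 0.16 from light WT to light Rho0 cells (36.4-fold, adjusted p = 4.86e-15). Only 5 of the 5449 genes had a more negative difference in that comparison.

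MUP1 (YGR055W), the high-affinity methionine permease, had the same order of groups at 9.06, 8.93, 8.82, 9.16 and 9.02 in dense WT cells, 11.06, 10.84, 10.92, 10.88 and 10.85 in light WT cells and 7.72, 8.04, 8.04, 7.92 and 7.85 in light Rho0 cells. No array of one group reached the range of another. MUP1 rose by 1.91 ± 0.11 between the WT groups (3.77-fold, adjusted p = 2.57e-11) and fell by 3.00 ± 0.11 in Rho0 against light WT cells (7.98-fold, adjusted p = 4.37e-14). Against dense WT cells, Rho0 was 10-fold lower in MUP3 and 2.12-fold lower in MUP1 (adjusted p = 7.99e-13 and 2.46e-08).

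SUL1 (YBR294W), a high-affinity sulfate permease, went down stepwise from 7.79 ± 0.17 in dense WT cells to 6.88 ± 0.12 in light WT cells and 4.18 ± 0.25 in light Rho0 cells (SD, n = 5). Its lowest WT array read 6.75 and its highest Rho0 array 4.46. The step between the WT groups was -0.91 ± 0.13 (adjusted p = 5.41e-06) and that from light WT cells to Rho0 was -2.70 ± 0.13 (6.51-fold, adjusted p = 3.21e-12). MMP1 (YLL061W), the S-methylmethionine permease, had the same order at 11.26 ± 0.18, 10.06 ± 0.20 and 7.83 ± 0.35. It fell by 1.20 ± 0.16 between the WT groups (adjusted p = 2.01e-06) and by 2.22 ± 0.16 in Rho0 against light WT cells (adjusted p = 6.29e-10). SUL2, the second sulfate permease, and SAM3, the S-adenosylmethionine permease, differed between the WT groups by 0.02 ± 0.13 (95% interval -0.25 to 0.28) and -0.27 ± 0.14 (95% interval -0.57 to 0.03) and did not pass the test. By quantile normalization SUL2 was called up (0.38, adjusted p = 0.0161), and with the poly-A shift SAM3 was called down (-0.50, adjusted p = 0.0213). In Rho0 against light WT cells SUL2 changed by -0.67 ± 0.13 (adjusted p = 0.000121) and SAM3 by -0.86 ± 0.14 (adjusted p = 3.53e-05), the smallest falls of the role.

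**Figure D3:**
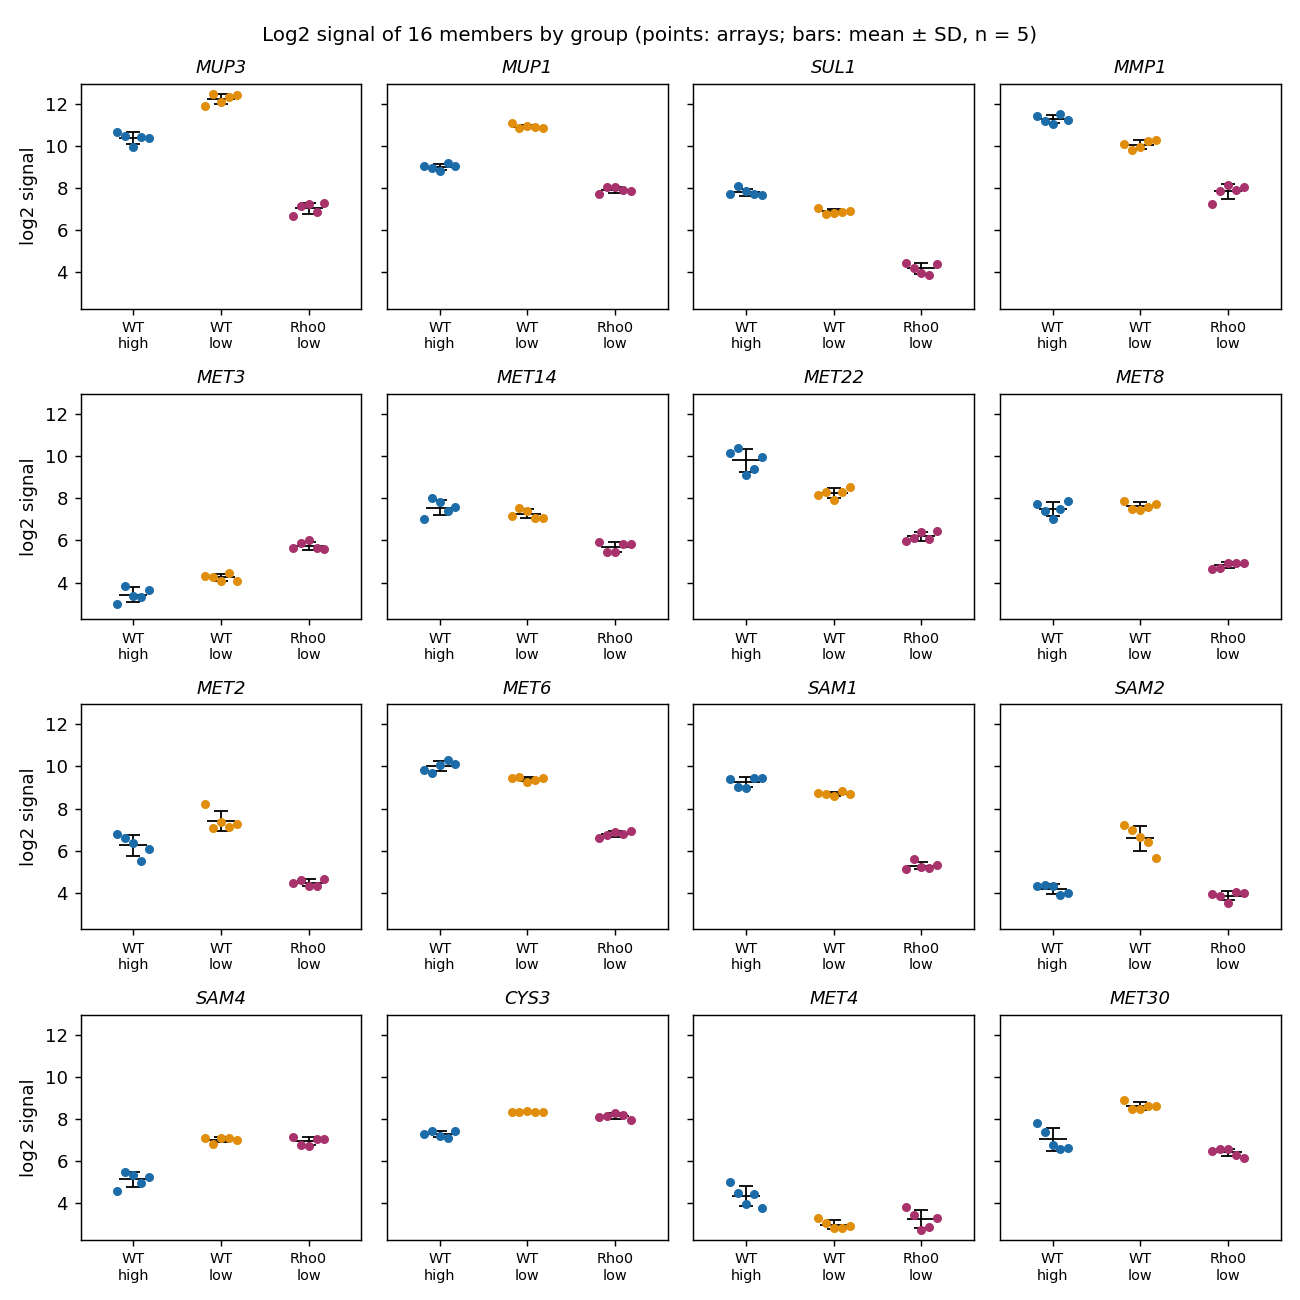
Log2 signal of selected genes in the 3 groups, with 1 point for each array and bars for the mean ± SD (n = 5). The MUP3 arrays of the light WT cells (11.87 to 12.45) lie above those of the dense WT cells (9.92 to 10.65), and both above light Rho0 cells (6.68 to 7.28), while MET3 runs the other way with its highest arrays in Rho0.

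The 8 genes of sulfate assimilation, which activate and reduce sulfate, did not move together. In light WT cells against dense WT cells MET3 and MET16 rose, MET22, MET5 and MET1 fell and 3 did not pass the test. In Rho0 against light WT cells MET3 and MET10 rose, MET14, MET22, MET8 and MET5 fell, the last of these turning to 0.15 with the poly-A shift, and 2 did not pass.

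MET3 (YJR010W), ATP sulfurylase, catalyses the first step, and its product is the substrate of the APS kinase encoded by MET14 (YKL001C). MET3 read 2.98, 3.86, 3.37, 3.31 and 3.65 in dense WT cells, 4.33, 4.29, 4.07, 4.48 and 4.07 in light WT cells and 5.65, 5.88, 6.01, 5.62 and 5.59 in light Rho0 cells. Its arrays were lowest in dense WT cells and highest in Rho0, with no overlap. MET3 rose by 0.81 ± 0.15 between the WT groups (adjusted p = 0.000119) and by 1.50 ± 0.15 in Rho0 against light WT cells (2.83-fold, adjusted p = 7.71e-08). MET14 was at 7.56 ± 0.37, 7.26 ± 0.21 and 5.69 ± 0.23 in the same 3 groups (SD, n = 5). It differed by -0.30 ± 0.17 between the WT groups, which did not pass the test, and fell by 1.57 ± 0.17 in Rho0 against light WT cells (2.97-fold, adjusted p = 1.33e-07). The signals of the genes for these consecutive steps thus changed in opposite directions in Rho0 against light WT cells.

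MET22 (YOL064C), the phosphatase that removes the by-product of PAPS reduction, read 10.14, 10.38, 9.10, 9.38 and 9.96 in dense WT cells, 8.16, 8.29, 7.90, 8.28 and 8.54 in light WT cells and 5.96, 6.13, 6.42, 6.08 and 6.45 in light Rho0 cells. The dense WT arrays were highest, the Rho0 arrays lowest, and no groups overlapped. MET22 fell by 1.56 ± 0.20 between the WT groups (2.95-fold, adjusted p = 1.86e-06) and by a further 2.02 ± 0.20 in Rho0 (4.06-fold, adjusted p = 6.59e-08). It was 12-fold lower in Rho0 than in dense WT cells.

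MET5 (YJR137C) and MET10 (YFR030W) encode the beta and alpha subunits of sulfite reductase. MET5 read 8.70, 8.80, 9.18, 9.61 and 9.31 in dense WT cells, 7.64, 7.81, 8.02, 8.25 and 8.44 in light WT cells and 7.34, 7.52, 7.45, 7.50 and 7.68 in light Rho0 cells. The dense WT arrays lay above all others, and the light WT and Rho0 arrays overlapped. MET5 fell by 1.09 ± 0.17 between the WT groups (adjusted p = 2.16e-05) and by 0.53 ± 0.17 in Rho0 (adjusted p = 0.0109). MET10 differed by -0.19 ± 0.10 between the WT groups, which did not pass the test, and rose by 0.66 ± 0.10 in Rho0 against light WT cells (adjusted p = 1.92e-05).

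MET8 (YBR213W) and MET1 (YKR069W) act in the synthesis of siroheme, a cofactor of sulfite reductase. MET8 read 7.72, 7.40, 7.03, 7.51 and 7.88 in dense WT cells, 7.87, 7.49, 7.43, 7.57 and 7.74 in light WT cells and 4.67, 4.69, 4.94, 4.95 and 4.92 in light Rho0 cells. The WT groups overlapped, and all Rho0 arrays were far below them. MET8 differed by 0.11 ± 0.15 between the WT groups (95% interval -0.19 to 0.42, not called) and fell by 2.79 ± 0.15 in Rho0 (6.9-fold, adjusted p = 1.05e-11). MET1 showed the other pattern: it fell by 0.99 ± 0.11 between the WT groups (adjusted p = 4.04e-07) and differed by 0.01 ± 0.11 between the light groups (95% interval -0.23 to 0.24, not called), which was 0.69 and called with the poly-A shift (adjusted p = 0.00127). MET16, PAPS reductase, rose by 0.40 ± 0.14 between the WT groups (adjusted p = 0.0161), a call lost without replicate 2 of the light WT cells (adjusted p = 0.0503) and with the poly-A shift (0.17, adjusted p = 0.467). It differed by 0.07 ± 0.14 in Rho0 against light WT cells, not called, and by 0.75 with the poly-A shift, called (adjusted p = 0.00112).

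In homocysteine and methionine synthesis, MET2 and MET6, on either side of the missing Met17 step, both fell in Rho0, and the genes of the folate branch that feeds MET6 did not pass the test there in the deposited scaling. Between the WT groups MET2 and MET12 rose and MET6 fell.

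MET2 (YNL277W), homoserine O-acetyltransferase, makes the acceptor for sulfide. It read 6.80, 6.59, 6.36, 5.51 and 6.07 in dense WT cells, 8.22, 7.09, 7.39, 7.12 and 7.26 in light WT cells and 4.49, 4.63, 4.34, 4.35 and 4.67 in light Rho0 cells. All light WT arrays were above the dense WT arrays, and all Rho0 arrays below both. MET2 rose by 1.15 ± 0.22 between the WT groups (2.22-fold, adjusted p = 0.000177) and fell by 2.92 ± 0.22 in Rho0 against light WT cells (7.58-fold, adjusted p = 2.02e-09).

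MET6 (YER091C), the cobalamin-independent methionine synthase, read 9.84, 9.69, 10.06, 10.30 and 10.13 in dense WT cells, 9.47, 9.50, 9.27, 9.37 and 9.45 in light WT cells and 6.61, 6.74, 6.90, 6.78 and 6.94 in light Rho0 cells. The groups were apart, in descending order. MET6 fell by 0.59 ± 0.12 between the WT groups (adjusted p = 0.000299) and by 2.62 ± 0.12 in Rho0 (6.16-fold, adjusted p = 2.05e-12).

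MET12 and MET13 encode methylenetetrahydrofolate reductases, which supply the methyl group. MET12 (YPL023C) read 8.69, 8.79, 8.65, 8.36 and 8.58 in dense WT cells, 9.79, 9.49, 9.50, 9.37 and 9.33 in light WT cells and 9.42, 9.25, 9.32, 9.27 and 9.16 in light Rho0 cells. The dense WT arrays were lowest, and the light WT and Rho0 arrays overlapped. MET12 rose by 0.88 ± 0.11 between the WT groups (adjusted p = 1.9e-06) and differed by -0.21 ± 0.11 between the light groups, not called. That value was a called fall of -0.47 with the arrays shifted to the same S. cerevisiae median (adjusted p = 0.00147) and a called rise of 0.47 with the poly-A shift (adjusted p = 0.0411). MET13 differed by -0.09 ± 0.20 between the WT groups and by 0.35 ± 0.20 between the light groups, neither called. Without replicate 1 of light WT cells the second of these was 0.58 and called (adjusted p = 0.00237), and with the poly-A shift it was 1.04 and called (adjusted p = 0.00101).

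In transsulfuration, CYS4 and CYS3 take homocysteine through cystathionine to cysteine, and STR2 and STR3 carry the reverse route. In Rho0 against light WT cells CYS4, STR2 and STR3 fell, of which STR2 turned to a rise and CYS4 was no longer called with the poly-A shift, and in the WT comparison CYS3 rose and STR2 fell.

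CYS3 (YAL012W), cystathionine gamma-lyase, read 7.30, 7.45, 7.20, 7.11 and 7.41 in dense WT cells, 8.34, 8.31, 8.38, 8.34 and 8.33 in light WT cells and 8.11, 8.13, 8.30, 8.20 and 7.97 in light Rho0 cells. Dense WT arrays were lowest, and the light WT arrays lay within a very narrow range above those of Rho0. CYS3 rose by 1.05 ± 0.10 between the WT groups (2.06-fold, adjusted p = 4.94e-08). The difference between the light groups was -0.20 ± 0.10 and did not pass the test (adjusted p = 0.0952), although their arrays did not overlap. It was a called fall of -0.46 with the arrays shifted to the same S. cerevisiae median (adjusted p = 0.0013) and a called rise of 0.48 with the poly-A shift (adjusted p = 0.022).

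CYS4 (YGR155W), cystathionine beta-synthase, read 6.96, 6.38, 6.27, 6.38 and 6.18 in dense WT cells, 6.98, 6.36, 6.40, 6.27 and 6.27 in light WT cells and 5.86, 5.28, 5.22, 5.56 and 5.44 in light Rho0 cells. The WT groups had nearly the same range, and the Rho0 arrays were all lower. CYS4 differed by 0.02 ± 0.17 between the WT groups (95% interval -0.34 to 0.38, not called) and fell by 0.98 ± 0.17 in Rho0 (adjusted p = 5.22e-05). With the poly-A shift the fall was -0.30 and not called (adjusted p = 0.238).

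STR3 (YGL184C), cystathionine beta-lyase, read 6.11, 5.69, 5.16, 4.96 and 4.83 in dense WT cells, 6.54, 6.05, 5.41, 5.80 and 5.39 in light WT cells and 3.88, 3.65, 3.40, 3.67 and 3.70 in light Rho0 cells. The WT groups overlapped and the Rho0 arrays were all lower. STR3 differed by 0.49 ± 0.24 between the WT groups, not called (adjusted p = 0.0733), and fell by 2.18 ± 0.24 in Rho0 (4.53-fold, adjusted p = 1.79e-07). The first was a called rise with the replicate number as a block (adjusted p = 0.00975) and by quantile normalization (0.63, adjusted p = 0.0227). It was also called with the arrays shifted to the same S. cerevisiae median (0.61, adjusted p = 0.0231) and without the arrays numbered 1 (0.51, adjusted p = 0.026).

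STR2 (YJR130C), cystathionine gamma-synthase, read 9.93, 10.07, 9.69, 10.15 and 10.11 in dense WT cells, 9.70, 9.74, 9.66, 9.60 and 9.78 in light WT cells and 9.39, 9.49, 9.39, 9.41 and 9.57 in light Rho0 cells. The WT groups overlapped, and the Rho0 arrays were just below the light WT arrays. The falls were small, at -0.29 ± 0.11 between the WT groups (adjusted p = 0.021) and -0.25 ± 0.11 in Rho0 (adjusted p = 0.0477). The first was not called without replicate 4 or 5 of the dense WT cells or replicate 4 of the light WT cells (adjusted p from 0.0502 to 0.0519), nor with the arrays shifted to the same S. cerevisiae median (-0.17, adjusted p = 0.198). The second was not called when any of 9 arrays was left out (adjusted p from 0.0516 to 0.0975) or by quantile normalization (-0.19, adjusted p = 0.144), and turned to a rise of 0.44 with the poly-A shift.

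In the S-adenosylmethionine cycle, SAM1 and SAM2 encode the 2 S-adenosylmethionine synthetases, which are close paralogs. Their probe sets carry no suffix for shared binding, and cross-hybridization between them was not tested. They moved in opposite directions between the WT groups and both fell in Rho0 against light WT cells.

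SAM1 (YLR180W) read 9.41, 9.02, 8.96, 9.43 and 9.43 in dense WT cells, 8.74, 8.69, 8.58, 8.85 and 8.70 in light WT cells and 5.15, 5.59, 5.24, 5.20 and 5.33 in light Rho0 cells. The groups were apart in descending order, with a wide gap to Rho0. SAM1 fell by 0.54 ± 0.13 between the WT groups (adjusted p = 0.000914) and by 3.41 ± 0.13 in Rho0 against light WT cells (10.6-fold, adjusted p = 7.41e-14). It was 15.4-fold lower in Rho0 than in dense WT cells (adjusted p = 3.63e-15).

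SAM2 (YDR502C) read 4.34, 4.36, 4.34, 3.92 and 3.99 in dense WT cells, 7.23, 6.98, 6.65, 6.41 and 5.68 in light WT cells and 3.97, 3.85, 3.53, 4.04 and 4.02 in light Rho0 cells. All light WT arrays were higher than the others, while the dense WT and Rho0 arrays overlapped. SAM2 rose by 2.40 ± 0.22 between the WT groups (5.28-fold, adjusted p = 1.68e-08), the largest rise among the 33 genes in that comparison. It fell by 2.71 ± 0.22 in Rho0 against light WT cells (6.54-fold, adjusted p = 3.34e-09), and Rho0 and dense WT cells differed by -0.31 ± 0.22 (95% interval -0.76 to 0.14, not called).

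SAM4 (YPL273W) and MHT1 (YLL062C) encode homocysteine methyltransferases that use S-adenosylmethionine and S-methylmethionine as methyl donors. SAM4 read 4.61, 5.49, 5.34, 4.99 and 5.26 in dense WT cells, 7.10, 6.82, 7.10, 7.09 and 7.01 in light WT cells and 7.14, 6.79, 6.71, 7.04 and 7.03 in light Rho0 cells. The dense WT arrays were lowest and the light groups overlapped. SAM4 rose by 1.89 ± 0.15 between the WT groups (3.7-fold, adjusted p = 2.74e-09) and differed by -0.08 ± 0.15 between the light groups (95% interval -0.39 to 0.23, not called). That value was a called fall of -0.35 with the arrays shifted to the same S. cerevisiae median (adjusted p = 0.0464) and a called rise of 0.60 with the poly-A shift (adjusted p = 0.0184).

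MHT1 lies next to MMP1 on its chromosome, and SAM4 next to SAM3, so that each methyltransferase neighbours a permease for its methyl donor. In Rho0 against light WT cells MHT1 rose by 0.93 ± 0.13 (adjusted p = 4.41e-06) while MMP1 fell by 2.22 ± 0.16. In the WT comparison MHT1 changed by -0.37 ± 0.13 (adjusted p = 0.0169), a fall that was not called without the arrays numbered 1 (adjusted p = 0.109), by quantile normalization (0.211) or with the arrays shifted to the same S. cerevisiae median (0.111). There SAM4 rose while SAM3 was not called. SAH1, S-adenosylhomocysteine hydrolase, varied most between replicates of the WT groups, with an SD of 0.63 in dense WT cells and 0.62 in light WT cells. It rose by 0.70 ± 0.28 in Rho0 against light WT cells (adjusted p = 0.0375), a call lost when any of 5 arrays was left out (adjusted p from 0.059 to 0.125). The call was also lost by quantile normalization (adjusted p = 0.289) and with the arrays shifted to the same S. cerevisiae median (adjusted p = 0.17).

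Among the regulators, the activator gene MET4 fell between the WT groups, MET30 rose there, and in Rho0 against light WT cells MET28, MET30 and MET32 fell, of which MET32 turned to 0.29 and MET28 was no longer called with the poly-A shift.

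MET30 (YIL046W), the F-box protein that brings Met4 to its ubiquitin ligase, read 7.83, 7.37, 6.79, 6.60 and 6.63 in dense WT cells, 8.92, 8.46, 8.48, 8.62 and 8.60 in light WT cells and 6.48, 6.58, 6.57, 6.29 and 6.16 in light Rho0 cells. The light WT arrays were highest and the Rho0 arrays lowest, with no overlap. MET30 rose by 1.57 ± 0.20 between the WT groups (2.97-fold, adjusted p = 1.17e-06) and fell by 2.20 ± 0.20 in Rho0 (4.59-fold, adjusted p = 1.45e-08).

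MET4 (YNL103W), the bZIP activator of the pathway, read 5.01, 4.48, 3.97, 4.45 and 3.80 in dense WT cells, 3.31, 3.06, 2.84, 2.84 and 2.92 in light WT cells and 3.82, 3.45, 2.76, 2.88 and 3.32 in light Rho0 cells. The dense WT arrays were above the light WT arrays, and the Rho0 arrays overlapped both groups. MET4 fell by 1.35 ± 0.22 between the WT groups (2.54-fold, adjusted p = 2.47e-05) and differed by 0.25 ± 0.22 between the light groups (95% interval -0.20 to 0.71, not called), which was 0.93 and called with the poly-A shift. Its means in the light groups, 2.99 and 3.25, were close to the background level of 2.56.

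MET28 (YIR017C), a bZIP cofactor of Met4, read 5.03, 5.21, 4.95, 5.0 and 4.74 in dense WT cells, 4.54, 4.77, 3.72, 3.74 and 4.0 in light WT cells and 3.42, 2.91, 3.10, 2.96 and 3.07 in light Rho0 cells. The WT groups overlapped and the Rho0 arrays were all lower. MET28 fell by 0.83 ± 0.18 between the WT groups (adjusted p = 0.000577) and by 1.06 ± 0.18 in Rho0 (adjusted p = 5.03e-05). With the poly-A shift the second fall was -0.38 and not called (adjusted p = 0.151). The MET28 mean in light Rho0 cells, 3.09, was close to the background level of 2.56.

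MET31 and MET32 are zinc finger proteins that bring Met4 to DNA. MET31 differed by -0.02 ± 0.10 between the WT groups and by -0.04 ± 0.10 between the light groups, neither called, and both hung on the scaling. By quantile normalization the first was a called rise of 0.31 and the second a called fall of -0.40 (adjusted p = 0.00404). The second was also a called fall of -0.30 with the arrays shifted to the same S. cerevisiae median (adjusted p = 0.0225) and a called rise of 0.65 with the poly-A shift (adjusted p = 0.00334). MET32 rose by 0.36 ± 0.15 between the WT groups (adjusted p = 0.0361) and changed by -0.40 ± 0.15 between the light groups (adjusted p = 0.0231), a value that turned to 0.29 with the poly-A shift. Each of these MET32 calls was lost when any of 4 arrays was left out (adjusted p up to 0.116 and 0.0778), and without the arrays numbered 1 (0.0535 and 0.0663). The rise between the WT groups was also not called with the poly-A shift (0.13, adjusted p = 0.571). Nor was it called in the fit of only the 10 arrays compared (adjusted p = 0.0519) or by eBayes with its trend and robust options (0.0527). CBF1, a helix-loop-helix cofactor, was below the background level in all 3 groups (2.39, 2.28 and 2.04), so no fold is given. Its call in Rho0 against dense WT cells is a difference between signals at background.

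**Figure D4:**
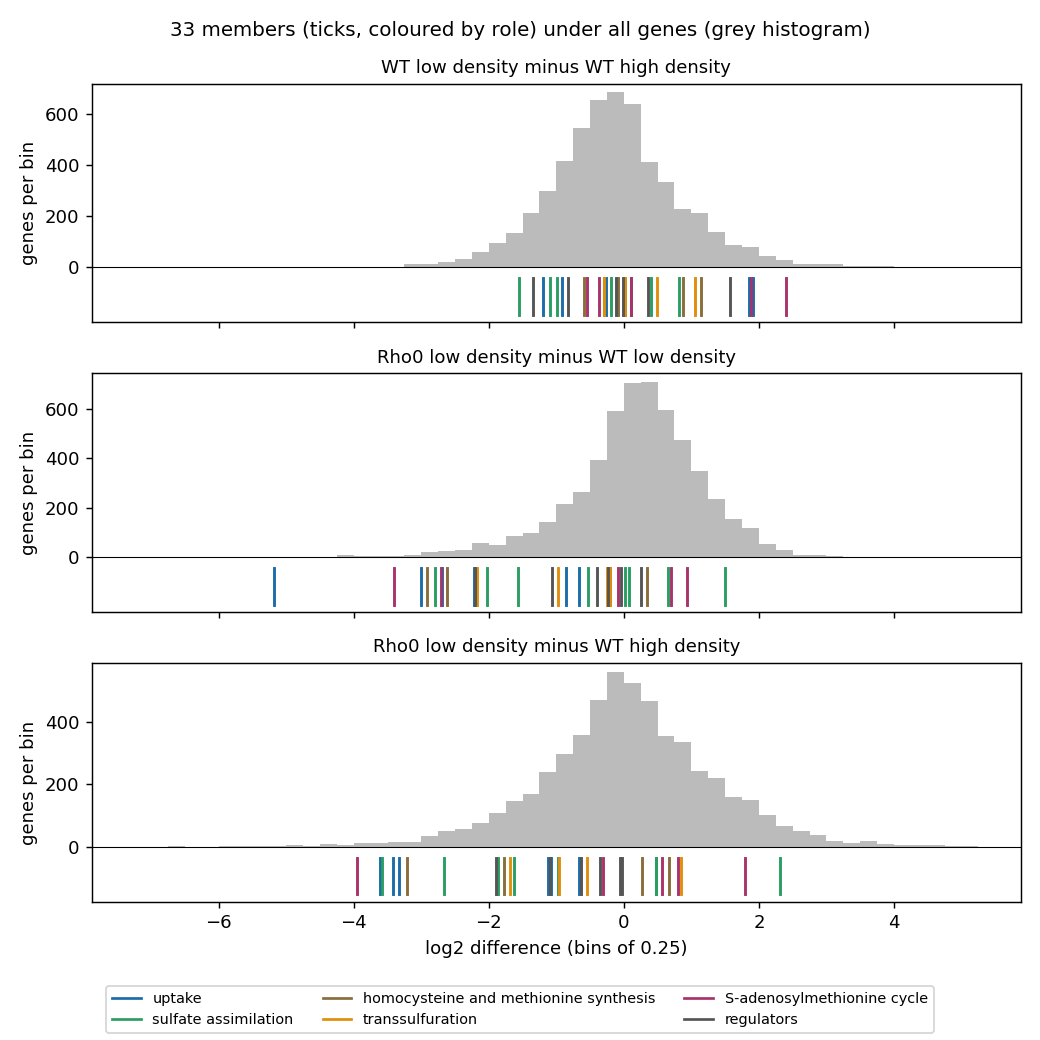
Histograms of the log2 difference of all 5449 genes (grey, vertical axis in genes per bin) in the 3 comparisons, with the 33 genes as ticks below each, coloured by role. In the deposited scaling, the ticks spread around -0.02 in light WT cells against dense WT cells. In the comparisons of Rho0 their medians are -0.67 and -0.96 while the medians of all genes are 0.25 and 0.03.

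Other genes of sulfur metabolism, 36 transporters, enzymes and ubiquitin ligase parts outside the 33, were read beside them. Of these 35 were measured and SOA1 was not matched. In light WT cells against dense WT cells 12 rose, 11 fell and 12 did not pass the test, with a median of 0.00. Of all genes 26.2% rose and 41.1% fell there, with a median of -0.17. The largest rises were GLR1, glutathione reductase, at 2.58 ± 0.11 (5.99-fold, adjusted p = 9.7e-13) and OPT1, a glutathione and peptide transporter, at 1.91 ± 0.13. The largest falls were SEO1, a putative permease, at -3.18 ± 0.17 (9.06-fold, adjusted p = 1.96e-11) and PDC6, a minor pyruvate decarboxylase low in sulfur amino acids, at -2.30 ± 0.18. The PDC6 mean in light WT cells, 2.57, was close to the background level of 2.56.

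In Rho0 against light WT cells 17 of the 35 rose, 11 fell and 7 did not pass, with a median of 0.41. Of all genes 44.6% rose and 22.7% fell there, with a median of 0.25. CDC53, the cullin of the ubiquitin ligase in which Met30 acts, rose by 2.71 ± 0.15 (6.55-fold, adjusted p = 3.31e-11) and the amino acid permease gene GNP1 by 1.66 ± 0.11. YCT1, a cysteine transporter, fell by 1.72 ± 0.19, and OPT1 fell by 1.42 ± 0.13 (adjusted p = 2.84e-07 and 1.54e-08). Of the genes for this ligase, the signal of CDC53 thus rose and that of MET30 fell in this comparison. The other ubiquitin ligase genes of the list, SKP1, HRT1 and CDC34, were not called. They differed by 0.25 ± 0.12, 0.21 ± 0.12 and 0.41 ± 0.26 (adjusted p = 0.0608, 0.136 and 0.175). In Rho0 against dense WT cells 16 rose, 11 fell and 8 did not pass, with a median of 0.15. Of all genes 37.9% rose and 34.4% fell there, with a median of 0.03. GLR1 was higher by 3.55 ± 0.11 (11.7-fold, adjusted p = 1.85e-15) and CDC53 by 2.14 ± 0.15, and the amino acid permease gene AGP3 fell by 2.61 ± 0.15 and SEO1 fell by 1.89 ± 0.17.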

How the data were processed

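Total RNA of 15 samples (3 groups of 5) was labelled with biotin and hybridized, 1 array to a sample, per the labels' protocols. The authors deposited log2 signals, which came from RMA run in Affymetrix Expression Console, per the submitters' processing notes. The versions of both are not given in the sources used here. RMA gives every array a common distribution of probe signals, so values are relative to the rest of the array.

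Of 10928 probe sets, 5498 named an S. cerevisiae gene, which made 5449 genes once a gene with several (47 genes) was represented by the probe set with the highest mean. The background level was the 95th percentile of the means of 1746 S. pombe probe sets. Symbols and the order of genes came from a RefSeq table. The labels name no genome build, and coordinates are left out. A limma model (limma 3.58.1, R 4.3.3) of the group means over the 15 arrays had 12 degrees of freedom left for the residual, and adjustment of p ran over 5449 genes. The script was tested on simulated data.

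The members, lists, tests and alternatives were chosen with earlier results of these data known. All 33 genes are named. Values of every array are given for the 2 largest called changes of each role in the first 2 comparisons, and also for MET3, which was chosen after its values were seen, as were the genes drawn in the plot of selected genes. Of the other pathway genes, the 2 largest called changes each way are named, and also SKP1, HRT1 and CDC34 beside CDC53. Promoter motifs were not searched, since promoter sequences were not used here.

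Alternative settings changed the samples fitted (the 10 arrays of a comparison), the model (the replicate number as block, or eBayes with its trend and robust options), the genes (those above background), the scaling and the probe sets (their mean for a gene), or left out each array in turn. The scalings were quantile normalization over S. cerevisiae genes, a shift of each array to a common S. cerevisiae median, and a shift to a common mean of 36 poly-A spike-in probe sets (the poly-A shift). Leaving out the arrays numbered 1 in all groups was added after the data were seen. A change of sign counted as a reversal where the value was called before or after it, and for every median.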

Additional observations from a re-analysis of the deposited data

Results flagged for a closer look

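In 5 of 99 sets of replicates (33 genes in 3 groups), 1 array stood apart from the other 4 by Dixon's criterion, a gap over 0.71 of the range of the group. Chance gives about 1 in 20, and all 5 arrays were replicate 1 of their group. MMP1 in light Rho0 cells read 7.23 on replicate 1 against 7.87 on the nearest array (gap 0.722 of the range). MET2 in light WT cells read 8.22 against 7.39 (0.731). CYS4 read 6.96 against 6.38 in dense WT cells (0.736) and 6.98 against 6.40 in light WT cells (0.816). MET31 in dense WT cells read 3.95 against 4.20 (0.712). The median of the 33 genes was also highest on replicate 1 in all 3 groups, at 6.96 in dense WT cells, 7.10 in light WT cells and 5.86 in light Rho0 cells. The cause was not tested. Without the arrays numbered 1, the calls of MMP1, MET2, CYS4 and MET31 did not change in any of the 3 comparisons.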

How the results depend on the processing

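In Rho0 against light WT the poly-A shift gave 14 of the 33 genes called up and 13 called down, with a median of 0.0087 against 0.94 over all genes, of which 3955 rose and 464 fell (2430 and 1235 as deposited). Among genes called before or after the shift, the sign turned there for SUL2 (0.0087), MET5 (0.15), MET12 (0.47), CYS3 (0.485), STR2 (0.44), SAM4 (0.60), MET31 (0.65), MET32 (0.29) and CBF1 (0.44). Among such genes, only CBF1 turned in Rho0 against dense WT (0.10). Changes of sign in genes called neither before nor after are not listed. Against dense WT the median was -0.51 with the shift, against 0.48 over all genes, of which 1022 fell (1877 as deposited). Between the WT groups the median was -0.25 against -0.40 over all genes, of which 880 rose (1425 as deposited). By quantile normalization the median of the 33 was 0.14 between the WT groups and -0.85 between the light groups, and with the S. cerevisiae median 0.10 and -0.94. MET31 turned to 0.31 between the WT groups by quantile normalization. The cause was not tested.

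With 1 array left out, 20 to 23, 21 to 24 and 28 to 29 of the 33 genes were called in the 3 comparisons in the order of the report, out of 3512 to 3676, 3506 to 3728 and 3831 to 3970 genes. The counts that rose were 9 to 12, 3 to 5 and 7 to 8, those that fell 10 to 12, 18 to 20 and 20 to 21, and the medians ran from -0.11 to -0.01, from -0.72 to -0.60 and from -0.996 to -0.83. Calls gained without a single array were MET14 without dense WT replicate 1 (adjusted p = 0.0189), SAM3 without dense WT replicate 3 (0.0456), STR3 without dense WT replicate 1 (0.00947) or light WT replicate 3 (0.0416) or 5 (0.0366), and, between the light groups, MET13 without light WT replicate 1 (0.00237) and CBF1 without light WT replicate 5 (0.0256). SAH1 in Rho0 against dense WT was not called without dense WT replicate 5 (0.056), nor CBF1 without any of 4 arrays (0.0539 to 0.0671). Of 2373 values of single genes over all alternatives, 2279 kept their call and, where called, their direction. Values not called in either fit were counted among these even where their sign changed.

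The labels do not say that a replicate number marks a shared batch, and the deviations of same-numbered samples from their group means were not correlated above 0.1 for every number, so the samples were treated as sharing only a number. The r ranged from 0.0386 to 0.367, from -0.0527 to 0.337 and from -0.0272 to 0.249 in the 3 comparisons, and the own number correlated best for 3, 2 and 1 of 5. Number 1 was among these in all 3 (r = 0.367, 0.337 and 0.194), a hint from the data and not from the design. With the replicate number as a block 3776, 3769 and 4047 genes and 23, 24 and 29 of the 33 were called, and the only changed call among the 33 was STR3 between the WT groups (0.49, adjusted p = 0.00975). As these are arrays, precision is limited by their number and by the signal over background, and CBF1 was below the background level in all 3 groups.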
